A study of Homo sapiens with 9 samples.

Results

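The 35 genes described here are targets of the transcription factor MYC, most of which encode proteins that build ribosomes, measured by RNA-seq in NCI-H1155 cells. They were taken by symbol from the deposited table of normalised read counts, and 35 of 35 were found among its 23369 genes. All 35 also passed the filter on low values, which kept 12642 genes for testing. NCI-H1155 (H1155 in the labels) is a human large cell lung carcinoma line that expresses neuroendocrine genes. Cells were plated, and 24 h later they were treated with foretinib or cabozantinib, each at 1 µM for 4 h, or with DMSO, the vehicle. The labels give no separate duration for DMSO. Each of the 3 groups held 3 libraries, called biological triplicates in the labels. The numbers in their titles serve as names: DMSO 2, 4 and 5, cabozantinib 3, 4 and 5, foretinib 1, 2 and 4. All groups are 1 cell line, without genetic change named in the labels.

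Both compounds inhibit several receptor tyrosine kinases, MET and KDR among them. Foretinib carries 1 more fluorine than cabozantinib, on the phenyl ring beside the quinoline ether, and a morpholinopropoxy chain in place of a quinoline methoxy group. The series asks how inhibitors of such similar structure come to differ in activity.

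MYC and its relatives MYCN and MYCL pair with MAX and bind DNA at the E-box, whose strongest form is CACGTG. Ribosomes are assembled in the nucleolus, where RNA polymerase I makes a long precursor of the ribosomal RNAs. This precursor is cut, chemically modified and folded with ribosomal proteins by large sets of assembly factors, first in a common particle and later in separate small and large subunit particles. MYC family proteins are known to drive many of these factors together, and the polyamine enzymes ODC1 and SRM with them.

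The label of the gene set was compared with the data. MYC itself was listed at 0 in all 9 libraries. MYCN, a family member with known amplification in neuroendocrine tumours, was at 2797, 2433 and 1965 in DMSO, at 2566, 2730 and 3534 in cabozantinib and at 2690, 4428 and 2803 in foretinib. MAX ranged from 918 to 2263 over the 9 libraries. The set is therefore called MYC targets by its list, in cells where MYCN and not MYC was detected. The level of MYCL is not described here. Not all members act in the nucleolus: SORD and DCTPP1 are metabolic enzymes, and TBRG4 and NDUFAF4 act in mitochondria.

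The E-box was searched for in RefSeq promoter windows of build GRCh38.p14, which run from 250 bases before to 50 bases after a gene's annotated start. Windows were matched for 28 members, and 15 of these (53.6%) held the exact letters CACGTG, which read the same on both strands. The same letters stood in the windows of 8.77% of all 27305 genes with a window and of 12.9% of the 8953 tested genes with one. In 14 members (50%), against 5.27% of the tested genes, the motif began between 50 bases before and 44 bases after the start. In the related lists this share ran from 0% (RNA polymerase I genes) to 28.6% (small subunit factors). The share with the motif anywhere in the window ran from 0% (RNA polymerase I genes) to 50% (MYC targets outside the nucleolus). That last list thus came near the 53.6% of the members. Small and large subunit factors were at 32.1% and 32.3%. A match is a description of the sequence and does not show binding. Members without a window were TCOF1, NOLC1, PUS1, MPHOSPH10, RRP12, RRS1 and SORD. The 30 bases around the motif are shown for 10 members whose values are described below, to show how near the start it lies and that its flanks differ, with the motif in capitals.
RRP9, chr3:51941892-51941921, minus strand: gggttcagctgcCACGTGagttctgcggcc
DCTPP1, chr16:30429792-30429821, minus strand: ggagggttcctcCACGTGgtcgggaagcgg
UTP20, chr12:101280083-101280112, plus strand: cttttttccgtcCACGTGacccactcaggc
IPO4, chr14:24188828-24188857, minus strand: tgtcagaacctcCACGTGctgtccctcccc
ODC1, chr2:10448024-10448053, minus strand: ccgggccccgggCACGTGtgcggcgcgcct
WDR43, chr2:28894658-28894687, plus strand: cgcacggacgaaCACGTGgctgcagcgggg
GNL3, chr3:52686026-52686055, plus strand: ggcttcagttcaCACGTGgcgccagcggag
FBL, chr19:39846356-39846385, minus strand: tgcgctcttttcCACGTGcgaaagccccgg
PES1, chr22:30591880-30591909, minus strand: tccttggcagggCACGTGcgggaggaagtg
MYBBP1A, chr17:4555340-4555369, minus strand: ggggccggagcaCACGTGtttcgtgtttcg

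In RRP9, DCTPP1, UTP20, IPO4 and ODC1 the first base of the motif lay 5, 9, 10, 29 and 29 bases before the start. In WDR43, GNL3, FBL, PES1 and MYBBP1A it lay 3, 6, 6, 13 and 27 bases after it. ODC1 held a further E-box, 5 bases after the start:
ODC1, chr2:10447990-10448019, minus strand: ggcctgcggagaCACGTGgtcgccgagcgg
The windows of NCL, NPM1, NOP56, POLR1B and 9 other members held no CACGTG.

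Depth was similar in all libraries, from 26996023 to 34062153 reads assigned to genes, but libraries differed in how many genes they detected. Of the tested genes, 16.3% to 21.02% were at 0 in a foretinib library, 4.41% to 5.48% in a cabozantinib library, 10.9% in DMSO replicate 2 and 5.30% and 5.58% in the other DMSO libraries. No members at a mean above 1000 were at 0 anywhere. Of 8 neuroendocrine markers, 8 were above 0 in at least 1 library, and their sum per library was 52150 to 65352. For foretinib against DMSO 7 of them had log2 differences above 0 and 1 had -3.83, with 0 called. Of 5 epithelial markers KRT19 was at 0 in every library, and the sum was 2603 to 6674. Leukocyte markers (4 of 5 at 0 throughout), endothelial (3 of 4), red cell (3 of 4) and fibroblast markers (3 of 6) summed to at most 71.3, 87.4, 141 and 1345.

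The members were abundant, and their summed share of the reads was similar in the 3 groups. Summed over all 35, the normalised counts were 255770, 208734 and 226378 in DMSO, 218230, 229253 and 249414 in cabozantinib and 231843, 252552 and 236613 in foretinib. The groups overlapped completely in this sum. It made up 0.843% ± 0.0853 (SD, n = 3) of all gene reads in DMSO, 0.844% ± 0.0462 in cabozantinib and 0.846% ± 0.0225 in foretinib. NCL and NPM1 supplied 54.7% of the sum. Without them the sums were 108150 ± 6690, 104617 ± 5935 and 105728 ± 10662 in that order, ratios of 0.967 for cabozantinib and 0.978 for foretinib against DMSO. In bulk RNA, fewer cells expressing a gene and less RNA per cell cannot be told apart.

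**Figure D1:**
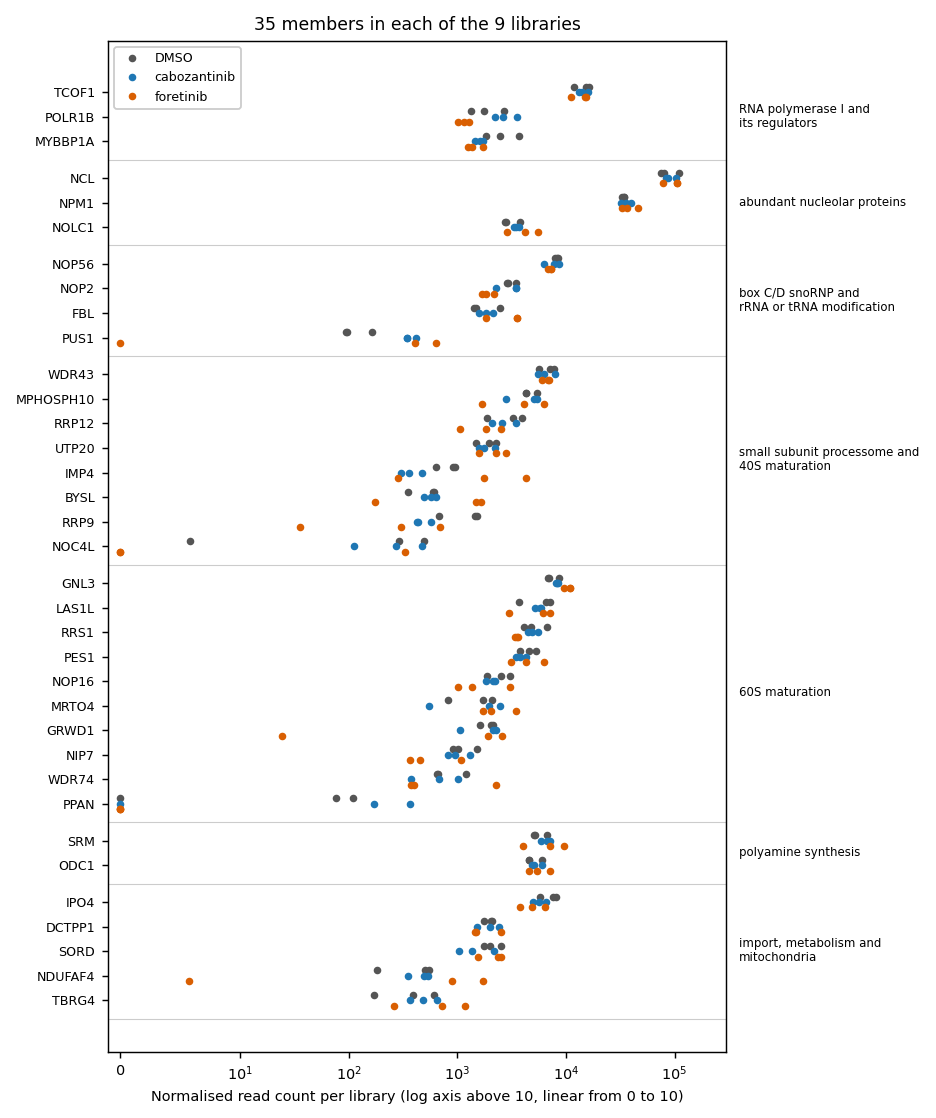
Normalised read counts of the 35 members (rows, grouped by role) in each of the 9 libraries (dots, coloured by treatment), on an axis that is logarithmic above 10 and linear below. Abundant members such as NCL, NPM1 and TCOF1 cluster tightly in all treatments, while RRP9, NDUFAF4 and GRWD1 each have 1 foretinib library far below the rest and NOC4L has 3 low libraries, DMSO 2 and foretinib 2 and 4.

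Levels of different genes were compared per kilobase of exon, with lengths from GENCODE release 29, because the authors' annotation is not given in the sources used here. On this scale, as the mean over 9 libraries, NCL was highest at 22825 and NPM1 next at 13840. They were followed by SRM at 5037, GNL3 at 4072, NOP56 at 3173 and RRS1 at 2671. The lowest were NOC4L at 134, PUS1 at 56.6 and PPAN at 45.9. In DMSO the values per kilobase of NOP56 (3409 ± 127, n = 3), GNL3 (3478 ± 449) and RRS1 (3040 ± 783) did not differ beyond their spread. Those of NCL (21895 ± 4581) and NPM1 (12978 ± 254) did not overlap with each other or with any other member.

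No member passed the test in any comparison. The test was limma on log2(value + 1) over all tested genes, with Benjamini-Hochberg adjustment over all 12642 and a threshold of 0.05, and it called 0% of genes with foretinib against DMSO, 0% with cabozantinib against DMSO and 0% between the compounds. The smallest adjusted p among members was 0.470 (GNL3), 1.00 (all members) and 0.378 (POLR1B) in that order. At an unadjusted p under 0.05 foretinib against DMSO had 1 member higher and 3 lower, where 2.17% and 6.9% of all genes lay. Cabozantinib against DMSO had 0 members, against 0.878% higher and 0.435% lower of all genes. Foretinib against cabozantinib had 1 member, lower, against 8.08% of all genes, and 0 higher, against 1.83%.

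Median differences were small. The median log2 difference of the members was -0.14 with foretinib against DMSO, -0.04 with cabozantinib against DMSO and -0.07 between the compounds. Over all tested genes these medians were -0.34, 0.04 and -0.44. Quantile normalisation brought the medians of all genes to -0.04, 0.01 and -0.05 and those of the members to -0.12, -0.03 and -0.12. Relative to the tested genes nearest in level, a reference chosen after the data were seen, the member medians were -0.05, -0.04 and -0.08. The foretinib and cabozantinib comparisons with DMSO share the same 3 DMSO libraries.

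**Figure D2:**
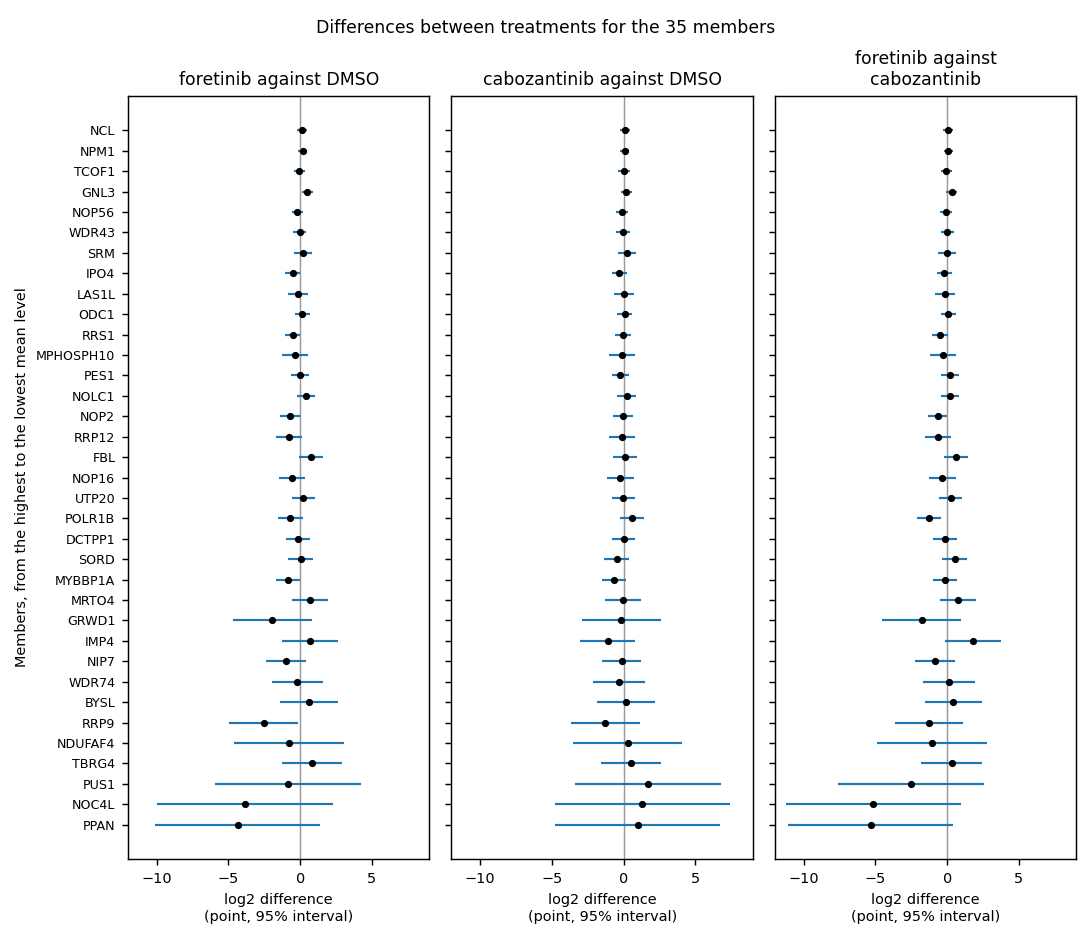
Log2 differences (points) with 95% intervals from limma (lines) for the 35 members, ordered from the highest to the lowest mean level, in the 3 comparisons. Intervals widen towards the low members, from -0.14 to 0.48 for NPM1 to -10.09 to 1.40 for PPAN in foretinib against DMSO.

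For part of the set the interval of the difference was narrow. The 95% interval lay within 1 log2 unit on either side of 0 for 12 of 35 members in foretinib against DMSO, 17 in cabozantinib against DMSO and 14 in foretinib against cabozantinib. Among all tested genes this held for 13.4%, 16.1% and 13.1%. These shares were not matched for level, which interval width follows. A mean below 1000 was found for 9 of 35 members but for 7154 of the 12642 tested genes. NPM1, NCL, TCOF1, NOP56, WDR43, SRM, ODC1, GNL3, LAS1L and PES1 were among the members for which it held in all 3 comparisons. The interval of 8 members was wider than 4 log2 units. These were the same 8 in each comparison, because the model gives a gene 1 spread and so 1 interval width for all 3.

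RNA polymerase I and its regulators held the member with the smallest p of the set. POLR1B, the second-largest subunit of RNA polymerase I, was at 1327, 1745 and 2697 in DMSO, at 3557, 2214 and 2650 in cabozantinib and at 1015, 1278 and 1140 in foretinib. All foretinib libraries lay below all 6 others, and cabozantinib overlapped with DMSO. Foretinib against cabozantinib gave a log2 difference of -1.27 (SE 0.40, 95% interval -2.13 to -0.41, limma adjusted p = 0.378), means of 1144 ± 132 and 2807 ± 685. Against DMSO (1923 ± 702) foretinib gave -0.69 (-1.55 to 0.17, adjusted p = 0.541) and cabozantinib 0.58 (-0.28 to 1.44, adjusted p = 1.00). These became -0.42 without DMSO replicate 5 and 0.34 without DMSO replicate 2.

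The POLR1B difference between the compounds was called by 1 of the tools used. DESeq2 on the recovered whole reads gave -1.30 with an adjusted p of 0.0194, in a comparison where it called 4.91% of all genes. DESeq2 was run on all 9 libraries only, so its call was not checked by leaving libraries out. With limma the difference was -1.43 to -1.09 without each library in turn. With a replicate block, to which foretinib replicate 1 and cabozantinib replicate 3 add nothing, it was -0.65. Over all alternatives run with limma or edgeR the adjusted p was 0.192 to 0.741. For foretinib against DMSO and for cabozantinib against DMSO, where DESeq2 called 5.19% and 0.388% of all genes, it called 0 members.

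MYBBP1A, a nucleolar protein that binds RNA polymerase I and represses MYB, was at 3692, 2480 and 1815 in DMSO. It was at 1441, 1704 and 1621 in cabozantinib and at 1249, 1732 and 1376 in foretinib. Both compounds thus lay below DMSO without overlap and overlapped with each other. The differences from DMSO were -0.83 (95% interval -1.67 to 0.01, limma adjusted p = 0.531) for foretinib and -0.69 (-1.53 to 0.15, adjusted p = 1.00) for cabozantinib, the latter -0.42 without DMSO replicate 2. TCOF1, treacle, which links RNA polymerase I to pre-rRNA processing, was at 16168, 11746 and 15242 in DMSO, 13092, 14087 and 15957 in cabozantinib and 11190, 15396 and 14919 in foretinib. All groups overlapped, and its interval of foretinib against cabozantinib was -0.46 to 0.33.

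Of the abundant nucleolar proteins, NCL and NPM1 had the narrowest intervals of all members. NCL, nucleolin, a histone chaperone and pre-rRNA binding protein, was at 109460, 75226 and 80288 in DMSO, at 87626, 83886 and 103404 in cabozantinib and at 105774, 104864 and 78172 in foretinib. NPM1, nucleophosmin, which forms the granular outer layer of the nucleolus, was at 34365, 33082 and 34011 in DMSO, at 32395, 39651 and 36084 in cabozantinib and at 32608, 36744 and 45663 in foretinib. Both overlapped between all groups. For foretinib against DMSO the interval was -0.22 to 0.48 for NCL and -0.14 to 0.48 for NPM1, and for foretinib against cabozantinib -0.29 to 0.41 and -0.23 to 0.39. NPM1 has many processed pseudogenes, so its count depends on how the authors assigned reads. NOLC1, a chaperone of small nucleolar ribonucleoproteins, was at 3109 ± 595, 3524 ± 189 and 4176 ± 1305 in DMSO, cabozantinib and foretinib.

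Among the 4 box C/D and RNA-modifying members, 2 did not overlap between foretinib and DMSO, NOP2 and NOP56, both lower. Of all tested genes, 7.69% lay lower without overlap in this comparison. NOP2, which methylates a cytosine of the large ribosomal RNA, was at 2869, 3493 and 2948 in DMSO, at 2257, 3429 and 3464 in cabozantinib and at 1693, 2178 and 1818 in foretinib. The foretinib libraries lay below the other 6, at -0.71 against DMSO (95% interval -1.38 to -0.04, limma adjusted p = 0.528) and -0.67 against cabozantinib (-1.34 to 0.00, adjusted p = 0.503).

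FBL, fibrillarin, the methyltransferase of the box C/D particles, was at 2459, 1426 and 1491 in DMSO, at 1595, 2142 and 1841 in cabozantinib and at 1852, 3565 and 3542 in foretinib. Foretinib replicates 2 and 4 were above all other libraries and replicate 1 was not (0.72 against DMSO, interval -0.12 to 1.56, limma adjusted p = 0.531). NOP56, a core protein of the same particles, was at 8293, 8416 and 7839 in DMSO, 6336, 7683 and 8585 in cabozantinib and 6839, 7320 and 7222 in foretinib. Foretinib lay below DMSO without overlap, by a ratio of means of 0.871, and overlapped with cabozantinib (-0.20 against DMSO, interval -0.61 to 0.21, limma adjusted p = 0.695). PUS1, a pseudouridine synthase of transfer RNAs, was at 95.7, 93.4 and 162 in DMSO, 346, 413 and 343 in cabozantinib and 635, 0 and 403 in foretinib. Cabozantinib lay above DMSO without overlap at a low level, with an interval of -3.40 to 6.77. This interval uses 1 spread for all 9 libraries, so the scattered foretinib values widen it.

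**Figure D3:**
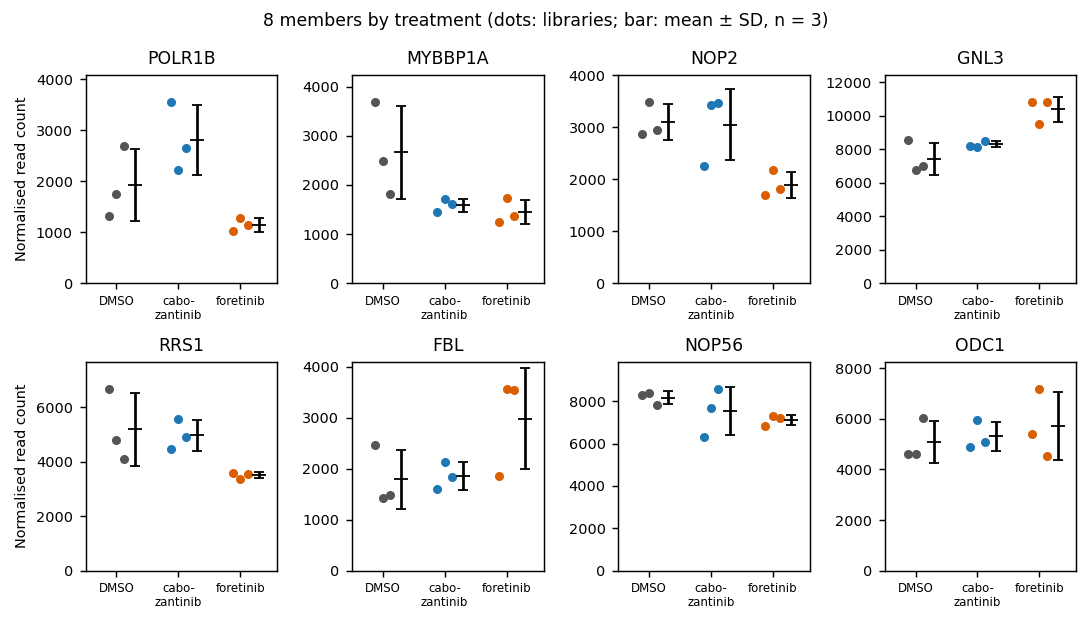
Normalised read counts of 8 members by treatment, as 1 dot per library with the mean ± SD (n = 3) beside them. The foretinib dots of POLR1B, NOP2 and RRS1 lie below and those of GNL3 above the 6 others, MYBBP1A is lower in both compounds than in DMSO, and ODC1 overlaps between all groups.

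Members of the small subunit processome, the particle that starts to fold the small subunit, spanned all levels, with 1 of 8 at a mean above 5000, 4 between 1000 and 5000 and 3 below 1000. WDR43, an early component, was at 7061, 5637 and 7749 in DMSO, 5525, 7997 and 6298 in cabozantinib and 6920, 6859 and 6031 in foretinib. All groups overlapped. IMP4, a component that aids pairing of U3 snoRNA with the precursor, was at 940, 901 and 631 in DMSO, 301, 358 and 474 in cabozantinib and 280, 4320 and 1744 in foretinib. Cabozantinib lay below DMSO without overlap, while foretinib held both the lowest and the highest of the 9 libraries. The log2 differences were -1.13 (95% interval -3.07 to 0.81) for cabozantinib against DMSO and 1.79 (-0.15 to 3.73, limma adjusted p = 0.514) for foretinib against cabozantinib. Both intervals use the spread over all 9 libraries, the foretinib values included. DESeq2 called the latter (2.49, adjusted p = 0.0175). With limma it was 0.91 without foretinib replicate 2 and 2.88 without foretinib replicate 1. In GENCODE the exons of IMP4 overlap those of CCDC115 on the other strand over 125 bases, and the strand setting of the counting is not given in the sources used here.

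RRP9, which binds U3 snoRNA, was at 1527, 1442 and 679 in DMSO, 434, 571 and 428 in cabozantinib and 304, 35.5 and 685 in foretinib. Cabozantinib lay below DMSO without overlap, and foretinib replicate 4 reached DMSO replicate 5. The difference of foretinib from DMSO was -2.54 (95% interval -4.94 to -0.14, limma adjusted p = 0.530) and -1.32 without foretinib replicate 2. RRP12, which takes part in export and late maturation, was at 3025 ± 1061, 2700 ± 677 and 1795 ± 720 in DMSO, cabozantinib and foretinib. MPHOSPH10 and UTP20, both of the processome, and BYSL, a late small subunit factor, overlapped between all groups, at foretinib means of 4031 ± 2293, 2217 ± 603 and 1112 ± 816. NOC4L, another small subunit factor, was at 5.82, 292 and 488 in DMSO, 110, 273 and 476 in cabozantinib and 328, 0 and 0 in foretinib.

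In the large subunit group the foretinib libraries of GNL3 and RRS1 did not overlap with the others. GNL3, nucleostemin, a nucleolar GTP-binding protein abundant in stem and tumour cells, was at 8532, 6766 and 6996 in DMSO, 8219, 8146 and 8485 in cabozantinib and 10801, 9528 and 10834 in foretinib. The foretinib libraries lay above the 6 others, while cabozantinib overlapped with DMSO. Foretinib was 1.40 times DMSO by the ratio of means (0.49, SE 0.18, 95% interval 0.10 to 0.87, limma adjusted p = 0.470) and 1.25 times cabozantinib (0.32, interval -0.06 to 0.71, adjusted p = 0.526). Without each library in turn the difference from DMSO was 0.42 to 0.59.

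RRS1, which brings the 5S ribonucleoprotein into the large subunit particle, was at 6671, 4802 and 4084 in DMSO, 4450, 5576 and 4900 in cabozantinib and 3597, 3374 and 3563 in foretinib. Foretinib lay below the 6 others, at -0.53 against DMSO (95% interval -1.07 to 0.00, limma adjusted p = 0.531) and -0.50 against cabozantinib (-1.03 to 0.04, adjusted p = 0.514). Without DMSO replicate 2 the former was -0.34. LAS1L, of the complex that cuts the internal spacer, and PES1, of the PeBoW complex, overlapped between all groups. LAS1L was at 5808 ± 1824, 5634 ± 392 and 5418 ± 2138 in DMSO, cabozantinib and foretinib, and PES1 at 4541 ± 790, 3844 ± 380 and 4577 ± 1586. NOP16, NIP7, MRTO4, WDR74 and GRWD1, further factors of this subunit, overlapped as well. Their foretinib means were 1817 ± 1087, 632 ± 389, 2394 ± 911, 1014 ± 1086 and 1499 ± 1315. GRWD1 was at 24.05 in foretinib replicate 4, and at 1050 to 2550 in the other 8 libraries.

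PPAN, the remaining large subunit factor, was the lowest member. It was at 0, 75.3 and 109 in DMSO and 169, 0 and 365 in cabozantinib, and was listed at 0 in all 3 foretinib libraries. In GENCODE 83.2% of its exon bases are shared with the readthrough gene PPAN-P2RY11, which is listed at 0 throughout, so its counts are uncertain. DESeq2 called PPAN lower in foretinib than in cabozantinib (adjusted p = 0.0398); limma did not (0.514). In all, 18 members share exon bases with another GENCODE gene, NOP2 and IPO4 over 70.9% and 95.2% of their length with genes that the table does not list by those names.

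The polyamine enzymes overlapped between all groups. ODC1, ornithine decarboxylase, the first enzyme of the pathway, was at 4593, 4597 and 6050 in DMSO, 4874, 5977 and 5088 in cabozantinib and 5396, 7183 and 4547 in foretinib. SRM, spermidine synthase, was at 5189, 5065 and 6747 in DMSO, 7162, 6711 and 5846 in cabozantinib and 4028, 7072 and 9571 in foretinib. For ODC1 the interval of foretinib against cabozantinib was -0.44 to 0.60, and for SRM -0.63 to 0.60. Foretinib replicates 1 and 4 were the lowest and the highest SRM libraries of all 9.

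Among the remaining members, IPO4, a nuclear import receptor for histones and ribosomal proteins, was at 8030, 5799 and 7641 in DMSO, 5656, 6503 and 4992 in cabozantinib and 4887, 3800 and 6353 in foretinib. All groups overlapped, and foretinib against DMSO gave -0.53 (95% interval -1.06 to -0.00, limma adjusted p = 0.531), or -0.35 without foretinib replicate 2. SORD, DCTPP1, TBRG4 and NDUFAF4 overlapped between all groups too. DCTPP1, which degrades modified dCTP, was at 1956 ± 183 in DMSO, at 1980 ± 453 in cabozantinib and at 1835 ± 615 in foretinib. NDUFAF4, an assembly factor of respiratory complex I, was at 1718, 5.76 and 887 in foretinib, and at 182 to 549 in the other 6 libraries.

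Members whose groups did not overlap were few. For foretinib against DMSO these were GNL3, higher, and POLR1B, MYBBP1A, NOP56, NOP2 and RRS1, lower. They made up 2.86% and 14.3% of the 35, where 3.99% and 7.69% of all tested genes did not overlap in these directions. For cabozantinib against DMSO PUS1 was higher and MYBBP1A, IMP4 and RRP9 were lower (2.86% and 8.57%, against 5.18% and 4.71% of all genes). For foretinib against cabozantinib, the 1 pair of compounds at a matched dose and time, GNL3 was higher and POLR1B, NOP2 and RRS1 were lower (2.86% and 8.57%, against 4.49% and 9.7%).

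The spread between libraries followed level and was widest in foretinib. Among the 9 members with a mean below 1000, the median coefficient of variation was 38.4% in DMSO, 24.5% in cabozantinib and 94.2% in foretinib. For all tested genes of that level it was 69.6%, 57.3% and 112%. Among the 10 members at 5000 and above it was 16.4%, 10.6% and 17.03%, and for all genes of that level 14.4%, 11.3% and 21.9%. A range of 4-fold or more within a group was seen in 2 members under DMSO, 3 under cabozantinib and 9 under foretinib (5.71%, 8.57% and 25.7% of the set, against 31.5%, 25.5% and 53.3% of all tested genes). A gene at 0 in every library of a group, such as PPAN in foretinib, has no range or coefficient of variation there and was not counted as wide. The share of genes at 0 per library, given above, was also highest in foretinib, and its part in the member values was not tested.

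**Figure D4:**
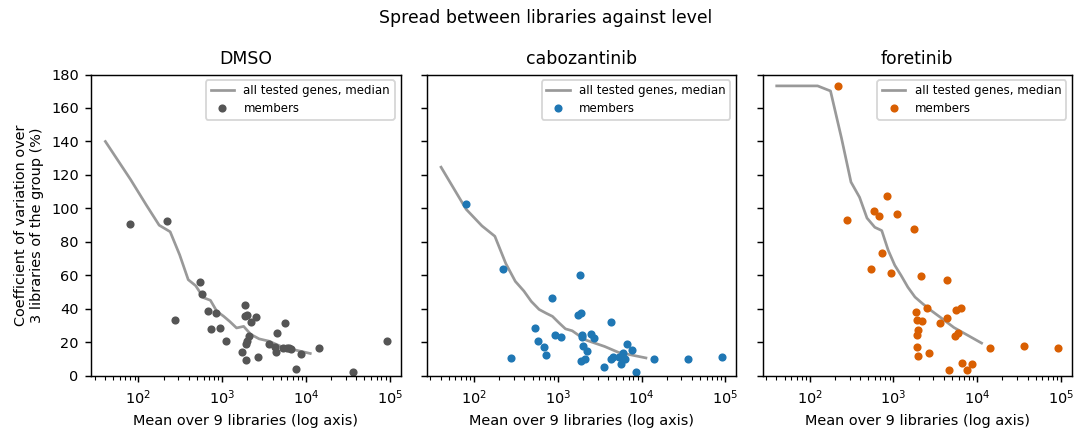
Coefficient of variation over the 3 libraries of a group (vertical axis, percent) against the mean over 9 libraries (logarithmic horizontal axis) for the members (dots) and as the median of all tested genes in 20 classes of level (line). PPAN, at 0 in foretinib, has no dot there; 9 members reach a 4-fold range in foretinib, against 2 in DMSO and 3 in cabozantinib.

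The motif divided the matched members without a difference that was tested. For foretinib against DMSO the median log2 difference was 0.15 in the 15 members with CACGTG (range -2.54 to 0.72) and -0.57 in the 13 without it (-4.34 to 0.82). Median levels of these members were 2213 and 1745. For cabozantinib against DMSO the medians were -0.05 with it and 0.07 without it, and for foretinib against cabozantinib 0.08 and -0.33. Both sets held members on either side of 0 for foretinib against DMSO: with the motif GNL3 (0.49), MYBBP1A (-0.83) and RRP9 (-2.54), without it NPM1 (0.17), NCL (0.13) and POLR1B (-0.69).

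Other genes of the pathway were counted in lists outside the 35. With limma 0 genes passed in any list and comparison. Among 37 tested large subunit factors 1 was higher and 6 were lower in foretinib than in DMSO at an unadjusted p under 0.05, and among 34 small subunit factors 2 were higher and 1 was lower. Over all tested genes 2.17% were higher and 6.9% lower at this p. The lists of 13 RNA polymerase I genes, 13 snoRNP proteins and 10 MYC network factors had 0, 1 and 0 such genes, and 37 MYC targets outside the nucleolus had 2 higher and 2 lower. Medians of foretinib against DMSO in these 6 lists ran from -0.26 (RNA polymerase I) to -0.09 (MYC network).

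For foretinib against DMSO the smallest p in these lists were those of RRP1, CBX3 and RSL1D1. RRP1, a nucleolar protein of pre-rRNA processing, was at 1005, 748 and 568 in DMSO, 642, 708 and 877 in cabozantinib and 0, 0 and 7.32 in foretinib. RSL1D1, a ribosomal L1 domain protein, was at 3727, 5226 and 4083 in DMSO, 6726, 4675 and 2722 in cabozantinib and 1219, 2933 and 1186 in foretinib. For RRP1 foretinib and DMSO did not overlap, with a limma adjusted p of 0.358, and for RSL1D1 the difference was -1.41 (adjusted p = 0.364). CBX3, a heterochromatin protein on the list of MYC targets outside the nucleolus, was at 8625 ± 1844 in DMSO, 11488 ± 914 with cabozantinib and 13707 ± 1928 with foretinib (0.68 for foretinib against DMSO, limma adjusted p = 0.359). RRN3, which brings RNA polymerase I to its promoter, was at 1685 ± 687 in DMSO, at 1608 ± 304 in cabozantinib and at 882 ± 712 in foretinib (-1.18 for foretinib against DMSO, limma adjusted p = 0.531). CAD, the enzyme that begins pyrimidine synthesis and a MYC target outside the nucleolus, was at 4268 ± 1101, 3941 ± 897 and 7341 ± 2543 in that order.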

How the data were processed

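RNA-seq of 9 libraries of 1 cell line was analysed, 3 per treatment. The deposited table gives 1 signal value per gene and library: reads counted per gene and scaled by a factor of that library, since every value came out as a whole number of reads within 1e-06. TopHat2 2.0.13, Cufflinks 2.2.1, HTSeq, DESeq2 and hs37d5 are listed in the submitters' processing notes. Their roles, the annotation and the strand setting were not stated in the labels or headers.

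Values were tested as log2(value + 1) with limma 3.58.1 in R 4.3.3 (trend, all 9 libraries in 1 model, no covariates). The groups shared 1 spread per gene, so the intervals and p-values of cabozantinib against DMSO also carry the spread of the foretinib libraries. Genes at 10 or more in at least 3 libraries entered, and p-values were adjusted by Benjamini-Hochberg over all of them. For low genes the size of a difference depends on the number added. With 100 in place of 1, foretinib against DMSO went from -4.34 to -0.62 for PPAN and from -2.54 to -1.84 for RRP9. A library at 0 can also set the sign: PUS1 was at -0.85 in this comparison, with a ratio of means of 2.95. As alternatives, edgeR 4.0.16 or DESeq2 1.42.0 was run on the whole reads. Scripts were tested on simulated data. Within groups the libraries differed beyond sampling noise, most of all in foretinib. Chi-square per degree of freedom was 121 to 141 between cabozantinib libraries and 135 to 221 between DMSO libraries. Between foretinib libraries it was 518 to 530. p-values measure only the spread between these libraries.

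Members, lists and roles were chosen with earlier results of these data known. By rule, values per library were due for the 8 most abundant members, the 4 of smallest p per comparison and POLR1B, ODC1, SRM, NOP56 and FBL, and outside the set for MYC, MYCN, MAX and up to 2 genes per list and comparison, of which some are described. Values per library of PUS1, NOC4L, GRWD1 and NDUFAF4 were added after they were seen.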

Additional observations from a re-analysis of the deposited data

How the results depend on the processing

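No members were called by limma or edgeR in any comparison under the alternatives run: pseudocounts of 10 and 100, no filter, a mean filter of 500, quantile normalisation, TMM scaling, only the 6 libraries compared, a replicate block, and leaving out each library in turn. DESeq2 on whole reads called 3 members (IMP4, POLR1B and PPAN) between the compounds and 0 in the comparisons with DMSO. Over all genes DESeq2 called 656 with foretinib against DMSO, 49 with cabozantinib against DMSO and 621 between the compounds, where limma as reported and edgeR called 0. Quantile normalisation called 1 gene with foretinib against DMSO. The cause of these differences was not tested. Leaving out each library in turn gave member medians of -0.29 to -0.02, -0.07 to 0.07 and -0.13 to -0.01 in that order of comparisons. The replicate block gave 0 called genes and member medians of 0.02, 0.06 and -0.16, and it moved POLR1B between the compounds from -1.27 to -0.65. Foretinib replicate 1 and cabozantinib replicate 3 share their number with no other library, so they add nothing to the differences under this block. Whether equal title numbers mark a shared harvest is not stated in the labels. Deviations of same-numbered libraries from their group means correlated at -0.0022 to 0.0288. That check runs over all tested genes, many of them low and variable, so it cannot exclude a pairing. Among 966 values of 17 named members under the alternatives, 56 had the other sign and 13 moved by more than the spread between libraries. Part of the 966 could not move and give no information on stability. In these the filter was changed, only the 6 libraries compared were used, or a library outside the comparison was left out. Precision was limited for some members: 3 of 35 were at 0 in at least 1 library, and 8 had intervals wider than 4 log2 units. By the shared spread, these were the same 8 in each comparison.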
